A study of Rattus norvegicus with 74 samples.

Results

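The nuclear-encoded subunits of mitochondrial complex I were followed as genes across red gastrocnemius muscle, mitochondria isolated from it and the left ventricle of sedentary and treadmill-trained rats. The members are the genes of the deposited count tables with the biotype protein_coding and a symbol made of Nduf, then a, ab, b, c, s or v, then a number, which leaves out the assembly factors named Ndufaf. The rule found 40 genes among 30560, and these carry 37 symbols. Ndufb2 (ENSRNOG00000010005 and ENSRNOG00000026616), Ndufs5 (ENSRNOG00000026646 and ENSRNOG00000029339) and Ndufa10l1 (ENSRNOG00000016470 and ENSRNOG00000062245) are each the symbol of 2 genes. A gene named Ndufs6 matched the symbol but not the biotype and was left out, and Ndufa10, Ndufb1 and Ndufb9 were not analysed here.

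All animals were male wild-type Wistar Kyoto rats, 9 weeks old when sampled, and all drank water with deuterium oxide. Trained rats (ExT) ran on a treadmill from 5 weeks of age for 4 weeks, on 5 days a week, for up to 60 min at up to 20 m/min. Sedentary rats (Sed) spent the same time on a treadmill that stood still. Sampling followed the final session by 24 h. Whole muscle (SM) is the inner red part of the gastrocnemius, a hindlimb muscle. The mitochondrial samples (MT) were immunoprecipitated from fresh muscle and treated with RNase-A and proteinase-K. LV is the wall of the left ventricle. SM_Sed, SM_ExT, MT_Sed and MT_ExT held 15 libraries each, LV_Sed and LV_ExT 7 each, and the 74 libraries came from 30 rats. SM libraries were made from 50 ng and MT libraries from 10 ng of RNA with a Zymo RiboFree kit, and LV libraries from 100 ng with an Illumina Ribo-Zero kit. Kit and input cannot be told apart from tissue in any comparison of LV with SM, nor input from fraction in any comparison of MT with SM.

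Complex I, or NADH:ubiquinone oxidoreductase, is the entry point of electrons from NADH into the respiratory chain. The arm in the matrix oxidises NADH at a flavin, passes electrons along iron-sulfur clusters and hands them to ubiquinone, and the arm in the inner membrane pumps protons. Its core consists of 7 subunits encoded by mitochondrial DNA, which form the membrane arm, and 7 nuclear-encoded subunits in the matrix arm. The latter fall into the N module, where NADH is oxidised (Ndufv1, Ndufv2 and Ndufs1), and the Q module, where ubiquinone is reduced (Ndufs3, Ndufs7 and Ndufs8 among them). Accessory subunits surround this core and support assembly and stability. Nuclear-encoded subunits are translated in the cytosol and imported as proteins. Cardiac muscle and slow oxidative fibres are rich in mitochondria, and endurance training is known to raise the mitochondrial content of skeletal muscle.

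Total counts per library were 19477976 to 39401323 in SM, 530397 to 9988027 in MT and 54645657 to 75758777 in LV, of which MT libraries held 430162 to 1055433 on nuclear-encoded genes. Fast myofibre markers (5 of 6 listed were in the tables) made up 7.15% to 13.03% of nuclear-encoded counts in SM and at most 0.000605% in LV. Cardiomyocyte markers (6 of 6) made up 3.56% to 4.59% in LV and at most 0.00463% in SM, so both tissues carried the markers of their labels. SM libraries of rats 5 (ExT) and 8 (Sed) stood at the 2 ends of the members' summed share, and the SM training result is given with and without them. Rats numbered 2 to 16 (the earlier range, 14 rats) and 17 to 32 (the later range, 16 rats) gave different values for that result, a difference that passed no threshold in edgeR. What the numbers stand for is not given in the sources used here, and 2 LV libraries came from the earlier range.

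As a share of nuclear-encoded counts, the members together were highest in LV, intermediate in SM and lowest in MT. The lowest, median and highest LV_Sed libraries had 0.829%, 0.928% and 0.932% (mean 0.904% ± 0.0415, SD, n = 7). LV_ExT had 0.814%, 0.911% and 0.961% (mean 0.896% ± 0.0589, SD, n = 7). SM_Sed had 0.379%, 0.602% and 0.717% (mean 0.599% ± 0.0911, SD, n = 15). In each of the 7 Sed and 7 ExT rats with LV, the LV library had a higher share than the SM library. SM_ExT had 0.500%, 0.659% and 0.883% (mean 0.655% ± 0.0907, SD, n = 15). MT_Sed had 0.0853%, 0.0957% and 0.101% (mean 0.0955% ± 0.00419, SD, n = 15). MT_ExT had 0.0900%, 0.0965% and 0.116% (mean 0.0976% ± 0.00624, SD, n = 15). The MT share was lower than the SM share of the same rat in 15 of 15 Sed and 15 of 15 ExT rats. MT did not overlap with the other tissues, while the highest SM library, ExT rat 5, lay within the LV range. No test was run on this sum. In bulk samples fewer cells of a type and less RNA per cell cannot be told apart.

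**Figure D1:**
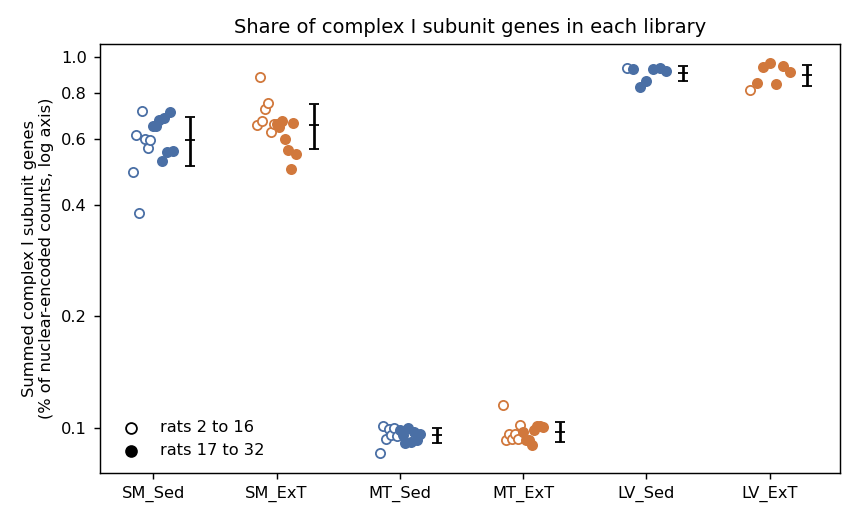
Summed counts of the 40 complex I subunit genes as a percent of nuclear-encoded counts (log axis) in each library, by group. Open points are rats 2 to 16 and filled points rats 17 to 32, and bars are the mean and SD. MT libraries sit between 0.0853% and 0.116%, SM between 0.379% and 0.883%, and LV between 0.814% and 0.961%.

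Levels in SM and LV are given as CPM scaled by the trimmed mean of M-values (TMM) over the SM and LV libraries together. They compare a gene between groups, not 1 gene with another, since gene lengths were not used. Ndufs1, the largest subunit of the complex, had the most raw counts of all members in SM and LV (157476 summed over SM_Sed and 299581 over LV_Sed). Ndufs7 had the most in MT (858 summed over MT_Sed), and Ndufv3-ps1 the fewest in every group among members with a count. The spread between libraries, which holds counting noise as well as differences between rats, was smallest in LV. It was taken on TMM-scaled CPM in SM and LV. In MT it was taken on CPM with a library's nuclear-encoded counts as its total. Over members with a median of at least 10 counts, the median coefficient of variation was 8.13% in LV_Sed and 10.7% in LV_ExT, 14.7% in SM_Sed and 16.2% in SM_ExT, and 31.6% in MT_Sed and 26.4% in MT_ExT. No member had more than 89 counts in an MT library. LV libraries were deeper, with 7 rats per group, mostly of the later range, against 15 in SM and MT. The part of counting noise and of these differences in the order was not tested. The largest coefficients were those of Ndufa10l1 (ENSRNOG00000062245) in LV_Sed (31.3%) and LV_ExT (26.97%), Ndufa4l2 in SM_Sed (30.97%), Ndufa3 in SM_ExT (29.2%), Ndufc2 in MT_Sed (44.1%) and Ndufa13 in MT_ExT (52.4%).

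The left ventricle and the red gastrocnemius did not differ by a common factor across the complex. Ndufb4 was 2.25-fold, Ndufa3 2.24-fold and Ndufc1 2.16-fold higher in LV than in SM of the same 7 Sed rats, while Ndufa13 was 2.48-fold and Ndufb8 2.41-fold lower. Of 39 members tested, 18 were called higher and 17 lower (edgeR quasi-likelihood test, adjusted p under 0.05). Across 14367 genes tested, 40.0% were called higher and 38.6% lower, so the split of the members lay near that of genes at large. The median log2 fold change was -0.01 for the members and 0.04 for all genes.

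The ExT rats are other animals. In them 18 of 39 members were called higher and 15 lower, beside 39.7% and 39.5% of 14338 genes, with a median of 0.10 for the members and 0.01 for all genes. In both arms 18 members were called higher and 15 lower, and 0 were called in opposite directions.

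**Figure D2:**
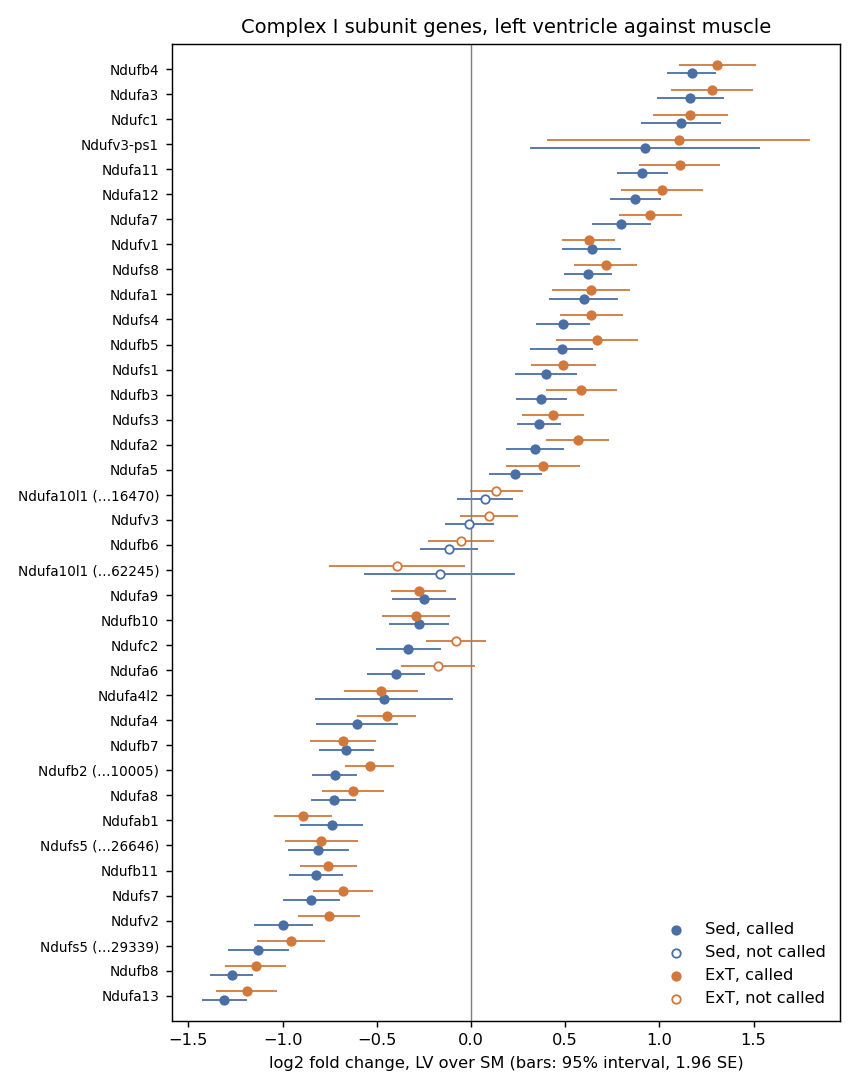
Log2 fold change of LV over SM for 38 members, in Sed and in ExT rats (7 rats each), with 95% intervals as bars, filled where called at an adjusted p under 0.05 and open where not. The members run from Ndufa13 (-1.31 in Sed rats) to Ndufb4 (1.17 in Sed rats), and in both arms 18 members were called higher and 15 lower among all 39 tested.

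The 3 core subunits of the N module split. Ndufv1, which binds NADH and the flavin, was 391, 443 and 536 CPM (lowest, median and highest of 7 libraries) in LV_Sed and 254, 291 and 339.8 CPM in SM of the same rats. Every LV library lay above every SM library (log2 fold change 0.64, SE 0.080, adjusted p = 4.7e-07). Ndufv2, the iron-sulfur subunit beside the flavin, went the other way, with 176, 206 and 228 CPM in LV_Sed and 347, 437 and 448 CPM in SM. Every LV library lay below every SM library (log2 fold change -0.996, SE 0.079, adjusted p = 6.6e-10). Ndufs1, which carries iron-sulfur clusters, was 479, 581 and 668 CPM in LV_Sed and 368, 419.9 and 510.1 CPM in SM. These ranges overlapped, and LV was higher in 7 of 7 rats (log2 fold change 0.40, SE 0.084, adjusted p = 2.4e-04). In ExT rats the log2 fold changes were 0.63 for Ndufv1, -0.75 for Ndufv2 and 0.49 for Ndufs1, all called.

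The Q module split as well. Ndufs8, an iron-sulfur subunit, was 99.1, 116 and 132 CPM in LV_Sed and 71.4, 76.3 and 79.6 CPM in SM (log2 fold change 0.62, SE 0.065, adjusted p = 4.1e-08). Ndufs3 was 156, 182 and 202 CPM in LV_Sed and 135, 138 and 148 CPM in SM (log2 fold change 0.36, SE 0.059, adjusted p = 1.6e-05). For both, every LV library of Sed rats lay above every SM library. Ndufs7, which holds the last iron-sulfur cluster before ubiquinone, was 129.6, 139 and 159 CPM in LV_Sed and 220.3, 254 and 306 CPM in SM (log2 fold change -0.85, SE 0.077, adjusted p = 4.6e-09). Here every LV library lay below every SM library. In ExT rats the log2 fold changes were 0.71 for Ndufs8, 0.43 for Ndufs3 and -0.68 for Ndufs7, all called.

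How reads shared with overlapping or similar genes were counted, and whether strand was used, is not given in the sources used here. Ndufv3-ps1, typed as protein_coding despite a suffix used for pseudogenes, had 0 to 12 counts in SM and 24 to 54 in LV. It was called higher in Sed (0.92) and ExT rats (1.10).

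Of 8 accessory subunits of the matrix arm tested, 5 were called higher and 2 lower in LV of Sed rats. The higher ones, as log2 fold changes, were Ndufa12 (0.87), Ndufa7 (0.80), Ndufs4 (0.49), Ndufa2 (0.34) and Ndufa5 (0.23), and the lower ones Ndufa6 (-0.40) and Ndufa9 (-0.25). Ndufs4 is a gene of Leigh syndrome, Ndufa12 joins the complex late in assembly, and Ndufa9 lies near the ubiquinone site. Ndufa12 was 111, 135 and 147 CPM in LV_Sed and 64.8, 70.2 and 81.01 CPM in SM, with no overlap. Ndufv3 was not called in either arm, at -0.01 in Sed rats (95% interval -0.14 to 0.12) and 0.10 in ExT rats. Ndufa6 was not called in ExT rats (-0.18, SE 0.1004).

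In the proximal membrane arm 4 of 9 accessory genes tested were called higher and 5 lower, and in the distal membrane arm 3 of 9 were called higher and 5 lower. Both ends of the whole order lie here. Ndufb4, a distal subunit, was 106, 118 and 119.7 CPM in LV_Sed and 42.3, 50.9 and 57.3 CPM in SM (log2 fold change 1.17, SE 0.067, adjusted p = 4.0e-12). Ndufa3, a small proximal subunit, was 34.3, 38.6 and 43.5 CPM in LV_Sed and 13.1, 17.2 and 21.00 CPM in SM (log2 fold change 1.16, SE 0.092, adjusted p = 5.7e-10). For both, every LV library of Sed rats lay above every SM library. Ndufa13, also known as GRIM-19, was 52.9, 61.8 and 63.8 CPM in LV_Sed and 136, 149 and 159 CPM in SM (log2 fold change -1.31, SE 0.060, adjusted p = 1.4e-13). Ndufb8, whose protein is a common blot marker of assembled complex I, was 82.1, 93.5 and 98.4 CPM in LV_Sed and 209, 217 and 238 CPM in SM (log2 fold change -1.27, SE 0.058, adjusted p = 1.2e-13). For both, every LV library lay below every SM library.

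The other proximal genes called higher in Sed rats were Ndufc1 (1.11), Ndufa11 (0.91) and Ndufa1 (0.60). Those called lower were both Ndufs5 genes (-1.13 for ENSRNOG00000029339 and -0.81 for ENSRNOG00000026646), Ndufa8 (-0.73) and Ndufc2 (-0.33). Ndufs5 and Ndufa8 lie on the side of the intermembrane space, as does Ndufb7. In the distal arm Ndufb5 (0.48) and Ndufb3 (0.37) were called higher, and Ndufb11 (-0.82), Ndufb2 (-0.72), Ndufb7 (-0.66) and Ndufb10 (-0.28) lower. Ndufb6 (-0.12) and both Ndufa10l1 genes (0.07 for ENSRNOG00000016470 and -0.17 for ENSRNOG00000062245) were not called in either arm. Ndufc2 was not called in ExT rats (-0.08, SE 0.082).

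Ndufab1, the mitochondrial acyl carrier protein that also serves fatty acid synthesis, was 44.5, 53.5 and 54.7 CPM in LV_Sed and 71.1, 81.9 and 106 CPM in SM, with no overlap (log2 fold change -0.74, SE 0.086, adjusted p = 1.7e-07). Ndufa4, now assigned to cytochrome c oxidase, was 171, 203 and 217 CPM in LV_Sed and 224, 299 and 398 CPM in SM, again with no overlap (log2 fold change -0.61, SE 0.112, adjusted p = 6.5e-05). Ndufa4l2, its hypoxia-induced paralog, was 4.04, 5.23 and 5.54 CPM in LV_Sed and 3.67, 6.67 and 11.4 CPM in SM, and these ranges overlapped. Its log2 fold change of -0.46 (adjusted p = 0.031) became -0.40 with the rat as a replicate block (adjusted p = 0.057). In ExT rats it was -0.48 (adjusted p = 2.2e-04).

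**Figure D3:**
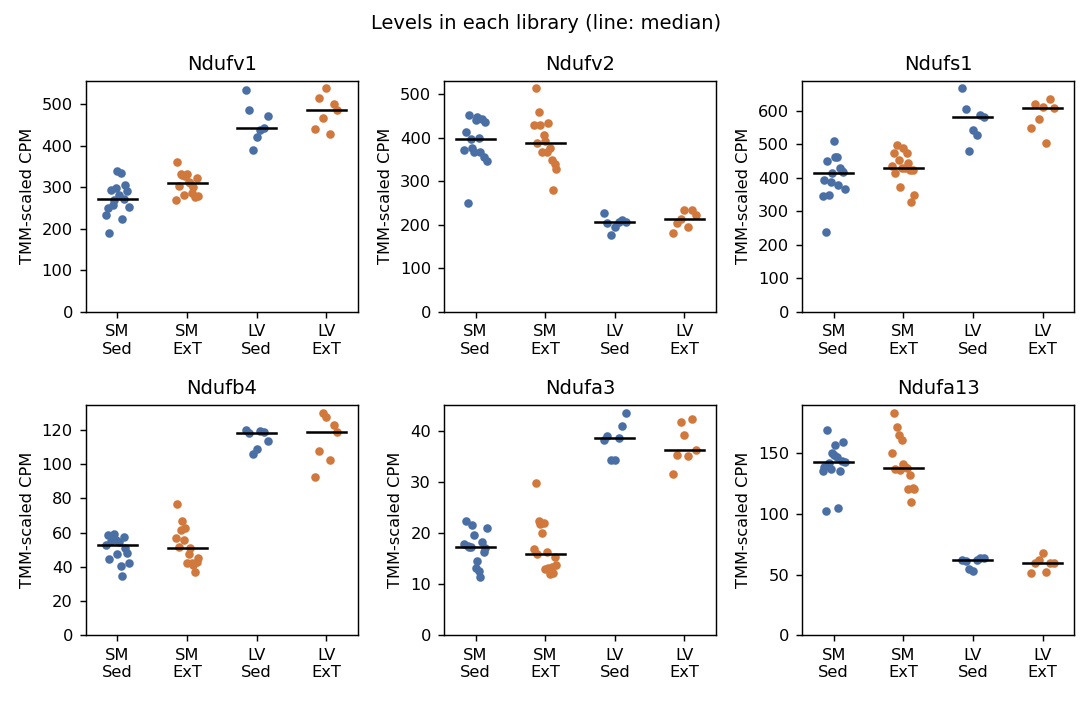
TMM-scaled CPM of Ndufv1, Ndufv2, Ndufs1, Ndufb4, Ndufa3 and Ndufa13 in each SM and LV library (points), with the group median as a line and each panel on its own axis. Ndufv1 is higher in LV and its N module partner Ndufv2 lower, with log2 fold changes of 0.64 and -0.996 in Sed rats.

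The split of calls moved with the scaling. With libraries scaled to nuclear-encoded counts, an alternative chosen after seeing the data, the median of all genes became 0.59 in Sed and 0.50 in ExT rats. The calls then were 23 higher and 9 lower in Sed rats, and 24 higher and 9 lower in ExT rats. In either direction 32 of 39 members and 12089 of 14367 genes were called in Sed rats. In ExT rats these were 33 of 39 members and 11940 of 14338 genes. The split of all genes by direction under this scaling is not given here. Under both scalings 19 of 39 members lay above the median of all genes in Sed rats and 20 of 39 in ExT rats.

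Related genes, from lists chosen with earlier results known, are given by counts. Of 18 complex I assembly factors tested, 8 were called higher and 5 lower in LV of Sed rats, with a median log2 fold change of 0.13. Ndufaf4 (1.22) and Tmem186 (1.13) were highest, and Ndufaf2 (-3.24) and Tmem70 (-1.83) lowest. Ndufaf2 is the paralog of Ndufa12, which was called higher. Of 34 subunits of complexes II to V, 18 were called higher and 10 lower (median 0.39). Of the 7 complex I subunits of the mitochondrial genome, 6 were called lower in LV, with a median of -4.91. Mitochondrial-genome genes as a whole held 39.9% to 50.7% of all counts in LV and 22.1% to 35.9% in SM. LV and SM libraries were made with different kits, and the part of the kit in these values was not tested. Of 8 regulators of oxidative genes, Ppara (0.92), Esrra (0.72), Nrf1 (0.44) and Gabpa (0.32) were called higher, and Ppargc1b (-0.78), Tfam (-0.78), Ppard (-0.75) and Ppargc1a (-0.24) lower. The estimate of Ppargc1a is smaller than the shift of the median under nuclear scaling.

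The promoters of the genes at the ends of the LV order are shown because Nrf1, Gabpa and Esrra are known to bind promoters of respiratory chain genes. Each is the 250 bases before the annotated start, 5′ to 3′, from RefSeq on the build GRCr8, where 33 of 37 member symbols had an entry. The counts were made on mRatBN7.2, per the submitters' processing notes. Capitals mark matches on either strand to the letters GCGCANGC (NRF1) or CCGGAAG (GABP and the ETS family).

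Ndufb4 (chr11:76568928-76569177, plus strand): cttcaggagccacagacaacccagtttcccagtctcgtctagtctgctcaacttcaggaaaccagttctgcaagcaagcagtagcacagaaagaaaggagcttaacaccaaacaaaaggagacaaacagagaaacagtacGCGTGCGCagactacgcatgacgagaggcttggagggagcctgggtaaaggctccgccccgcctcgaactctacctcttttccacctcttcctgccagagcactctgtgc

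Ndufa3 (chr1:74515559-74515808, minus strand): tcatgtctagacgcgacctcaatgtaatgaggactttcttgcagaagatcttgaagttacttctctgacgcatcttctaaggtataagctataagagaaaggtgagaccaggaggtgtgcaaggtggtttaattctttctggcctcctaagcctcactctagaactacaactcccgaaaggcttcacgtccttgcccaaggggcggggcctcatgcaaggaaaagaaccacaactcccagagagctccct

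Ndufa13 (chr16:19560276-19560525, plus strand): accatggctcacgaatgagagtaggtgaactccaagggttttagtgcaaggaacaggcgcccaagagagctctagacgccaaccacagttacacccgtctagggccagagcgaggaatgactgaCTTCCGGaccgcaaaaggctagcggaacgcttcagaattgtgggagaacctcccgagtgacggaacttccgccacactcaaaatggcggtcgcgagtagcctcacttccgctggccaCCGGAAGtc

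Ndufb8 (chr1:253362937-253363186, minus strand): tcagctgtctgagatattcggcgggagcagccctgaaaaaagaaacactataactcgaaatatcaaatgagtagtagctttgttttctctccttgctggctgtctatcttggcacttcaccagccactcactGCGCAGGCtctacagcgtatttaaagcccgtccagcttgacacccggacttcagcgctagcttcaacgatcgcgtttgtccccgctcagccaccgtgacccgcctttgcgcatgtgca

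Over the 300 bases from 250 before to 50 after the start, the NRF1 letters were found in 10 of 33 members (30.3%) and in 8.98% of 33469 promoters. They were present in Ndufb4 and in Ndufb8, which lie at opposite ends of the LV order. The GABP letters were found in 7 members (21.2%) and 8.75% of promoters, with 2 matches in Ndufa13. The ESRRA letters AAGGTCA were found in 3 members (9.09%), Ndufb2, Ndufb4 and Ndufs5, and in 4.61% of promoters. The YY1 letters AAGATGGC were found in 8 members (24.2%) and 3.17% of promoters, and Ndufa3 and Ndufb8 hold them after the start, outside the bases shown. All members are typed as protein_coding. Among 21851 promoters of protein-coding genes the letters were found in 11.6% (NRF1), 10.7% (GABP), 3.78% (ESRRA) and 3.67% (YY1). Both strands were searched and none of the motifs contains another. They were chosen with results known, a match is not a bound site, and the absence of a match says only that these letters are not in the window.

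In isolated mitochondria nearly all complex I mRNAs were lower than in whole muscle. Ndufv2 was 38.1-fold, Ndufs1 13.7-fold and Ndufv1 7.79-fold lower in MT_Sed than in SM_Sed, as ratios of mean nuclear CPM (CPM with the nuclear-encoded counts of a library as its total). In Sed rats 37 of 39 members tested were called lower and 2 higher, beside 33.1% and 61.7% of 22842 genes. In ExT rats 36 of 38 were called lower and 1 higher, beside 35.0% and 59.3% of 21312 genes. In both arms 36 were called lower. Each MT library held 415 to 1039 counts on all members together, and 32.9% of 1200 member values in MT libraries were under 10 counts.

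The median log2 fold change of the members was -4.73 in Sed rats against 1.81 for all genes, and -4.80 against 1.31 in ExT rats. The gap between them was -6.54 and -6.11. With nuclear scaling the medians of all genes were 3.94 and 3.34, and the gaps -6.54 and -6.10. A change of scaling shifts members and other genes together, so it hardly moves the gap. The gap did depend on which genes were tested. With no filter on low counts the medians of all genes were 3.44 and 3.49, and the gaps -8.30 and -8.44. With every library thinned to the smallest total, 29 members and 9156 genes could be tested in Sed rats, and the gap was -3.53. After thinning a member could pass the filter through its SM counts alone, so this fit is no check on the direction. Single members are given below relative to the median of all genes that passed the filter, and share this dependence.

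**Figure D4:**
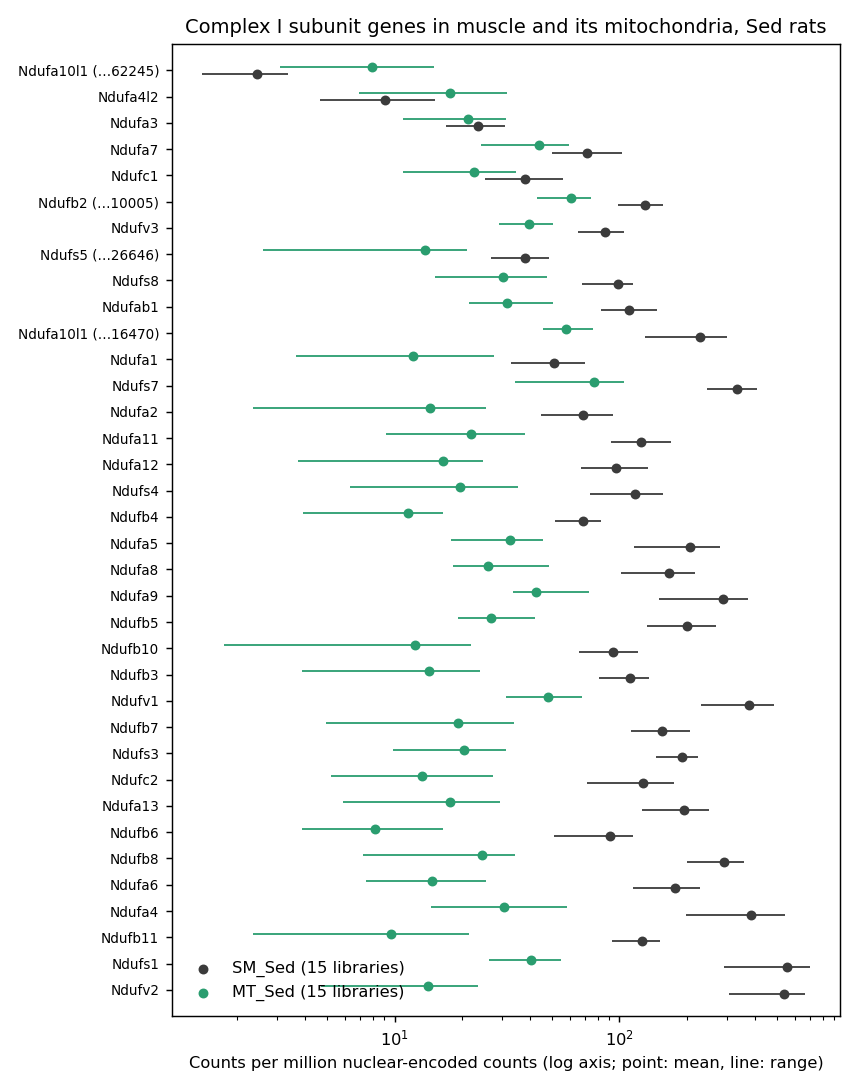
Nuclear CPM (log axis) of 36 members in SM_Sed and MT_Sed, 15 libraries each, with the mean as a point and the range as a line, where 4 members are left out, 3 of them with a library at 0. Ndufv2 shows the widest gap, 38.1-fold between the means, and Ndufa3 is among the members whose ranges overlap.

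The 3 core subunits of the N module lay below the members' median of -6.54. Ndufv2 had 4, 11 and 20 raw counts (lowest, median and highest of 15 libraries) in MT_Sed. That is 4.70, 15.00 and 23.6 nuclear CPM, against 306, 546 and 667 in SM_Sed, and no MT library reached the SM range. Relative to all genes it stood at -9.17 on the log2 scale (SE 0.129, adjusted p of the fitted value = 8.2e-42). Ndufs1 was 26.2, 41.7 and 54.7 nuclear CPM in MT_Sed and 292, 555 and 703 in SM_Sed (-7.69, SE 0.107). Ndufv1 was 31.1, 50.8 and 67.8 nuclear CPM in MT_Sed and 231, 376 and 488 in SM_Sed (-6.90, SE 0.103). The 3 N module subunits thus had different ratios, and none had overlapping groups. In the Q module Ndufs3 was at -7.13, Ndufs7 at -6.05 and Ndufs8 at -5.67, all called lower, with Ndufs7 and Ndufs8 above the members' median. In ExT rats the values were -8.52 for Ndufv2, -7.39 for Ndufs1, -6.54 for Ndufv1, -6.44 for Ndufs3, -5.48 for Ndufs7 and -5.39 for Ndufs8.

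Ndufs7 had 27, 60 and 89 raw counts in MT_Sed, or 34.1, 78.6 and 105 nuclear CPM, against 244, 335 and 409.8 in SM_Sed. The next values are relative to the median of all genes, itself 1.81 in Sed rats, and are not ratios of MT to SM. Other low members were Ndufb11 (-7.63), Ndufa4 (-7.57), Ndufb8 (-7.50), Ndufa6 (-7.49), Ndufa13 (-7.43), Ndufb6 (-7.35) and Ndufc2 (-7.20). Ndufab1 was at -5.73. At the near end Ndufa3 was 10.9, 20.5 and 31.3 nuclear CPM in MT_Sed and 16.9, 23.8 and 31.04 in SM_Sed. Its ranges overlapped, and with nuclear scaling its log2 fold change of -2.27 became -0.14 (adjusted p = 0.27). Ndufa4l2 was 6.92, 16.2 and 31.6 nuclear CPM in MT_Sed and 4.65, 8.36 and 15.2 in SM_Sed. It was called lower as fitted (-1.18) and reversed to 0.93 with nuclear scaling, as did Ndufa10l1 (ENSRNOG00000062245), from -0.42 to 1.69.

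The Ndufs5 gene ENSRNOG00000029339 had 0 counts in all 30 MT libraries and 277 to 721 in SM libraries. With a floor of 3 counts over the pooled group, it was at least 85.4-fold lower in MT_Sed and at least 86.5-fold lower in MT_ExT. The other Ndufs5 gene had 2 to 20 counts in MT libraries. The Ndufb2 gene ENSRNOG00000026616 had 0 counts in every SM and LV library and 1 to 12 in MT libraries, at least 821-fold higher in MT_Sed and at least 843-fold higher in MT_ExT than in SM. Genes that share a symbol may share reads, so each of these values, and those of both Ndufa10l1 genes, is uncertain.

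Genes with symbols starting Vom1r, Vom2r or Olr, mostly receptors of the nose with no known use in muscle, are given as a gauge. They held 1.37% to 1.98% of nuclear-encoded counts in MT and at most 0.00158% in SM, and 849 of 850 tested were called higher in MT of Sed rats. Their part in the values of the members was not tested. Among related lists in Sed rats, 33 of 35 subunits of complexes II to V were called lower in MT (median -5.90 as fitted, on the log2 scale), and 16 of 18 assembly factors, with a median of -1.75. The 7 mitochondrial-genome subunits had a median of -0.02, and 0 were called.

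With all rats, no member passed the test of training in any of the 3 kinds of sample. In SM 0 of 37 members tested were called between ExT and Sed, beside 0.206% of 13570 genes (edgeR quasi-likelihood test, and 0 members by DESeq2). An unadjusted p under 0.05 was found for 4 members and 13.7% of all genes. These members were Ndufab1 (log2 fold change 0.19, SE 0.063, adjusted p = 0.18), Ndufv1 (log2 fold change 0.18, SE 0.065, adjusted p = 0.22), Ndufa9 (log2 fold change 0.19, SE 0.079, adjusted p = 0.29) and Ndufa10l1 ENSRNOG00000062245 (log2 fold change 0.24, SE 0.116, adjusted p = 0.35). Estimates were positive for 29 of 37 members, with a median of 0.08, and for 47.9% of all genes, with a median of -0.01. With nuclear scaling they were positive for 36 members (median 0.13) and for 67.6% of all genes (median 0.05). With TMM scaling the 95% intervals of single members reached from -0.27 (Ndufb3) to 0.47 (Ndufa10l1).

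Ndufv1 was 189, 271 and 339.8 CPM (lowest, median and highest of 15 libraries) in SM_Sed and 269, 309.8 and 361 CPM in SM_ExT. Ndufab1 was 67.9, 77.9 and 106 CPM in SM_Sed and 76.9, 88.9 and 108 CPM in SM_ExT. For both genes the groups overlapped. Other core subunits had log2 fold changes of 0.10 (Ndufs1), 0.00 (Ndufv2), 0.10 (Ndufs3), 0.08 (Ndufs7) and 0.10 (Ndufs8). Among related lists 1 of 34 subunits of complexes II to V was called higher, and 0 of 18 assembly factors, 0 of 7 mitochondrial-genome subunits and 0 of 8 regulators were called.

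The 2 ranges of rats gave different values in SM. Among the 14 rats of the earlier range, 37 of 37 members and 49.1% of all genes had a positive estimate. The median of the members was 0.25. Called higher were 2 members, beside 2.16% of 13423 genes: Ndufv3 (0.26, SE 0.061, adjusted p = 0.031) and Ndufb10, a distal subunit (0.37, SE 0.096, adjusted p = 0.047). Ndufb10 was 53.9, 72.8 and 86.2 CPM in earlier Sed and 76.9, 96.3 and 111 CPM in earlier ExT rats. An unadjusted p under 0.05 was found for 28 members and 23.2% of all genes. Among the 16 rats of the later range, 31 of 38 members had a negative estimate, with a median of -0.09, while 49.4% of all genes were positive. Of these members 0 were called, and 3 had an unadjusted p under 0.05, beside 6.02% of all genes. Ndufb10 was 47.7, 64.4 and 77.6 CPM in later Sed and 48.9, 62.98 and 80.3 CPM in later ExT rats. Of 37 members tested in both ranges, 30 were positive in the earlier and negative in the later range.

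The difference between the ranges, a comparison added after seeing the data, was tested by an interaction term. It was positive for 37 of 37 members, with a median of 0.33 against 0.00 for all genes. Other lists of the respiratory chain were positive too: 34 of 34 nuclear subunits of complexes II to V (median 0.33), 7 of 7 mitochondrial-genome subunits of complex I (0.51) and 15 of 18 assembly factors (0.11). In edgeR 0 members were called, beside 0.0% of 13570 genes. An unadjusted p under 0.05 was found for 27 members and 13.3% of all genes. DESeq2 called 56 genes and 0 members. The difference was 0.22 for Ndufv1 (SE 0.125), 0.29 for Ndufs1 (SE 0.143), 0.36 for Ndufv2 (SE 0.139), 0.38 for Ndufs8 (SE 0.124) and 0.51 for Ndufa6 (SE 0.147). Ndufab1 differed least, by 0.03 (SE 0.111). It was 67.9, 76.3 and 78.4 CPM in earlier Sed and 76.9, 86.4 and 99.1 CPM in earlier ExT rats. In the later range it was 71.1, 81.9 and 106 CPM in Sed and 79.7, 97.8 and 108 CPM in ExT rats.

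**Figure D5:**
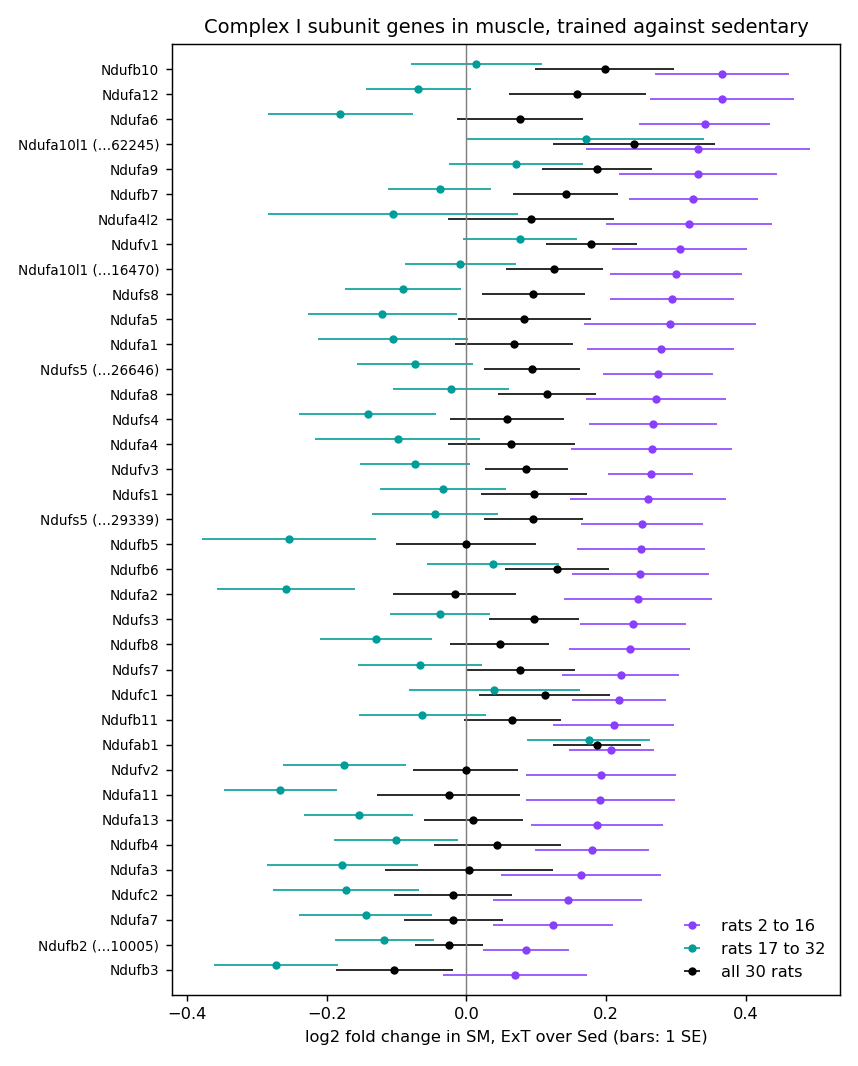
Log2 fold change of ExT over Sed in SM for 37 members, with bars of 1 SE, in all 30 rats, rats 2 to 16 and rats 17 to 32. All 37 estimates are positive in the earlier range, and 30 of these members are negative in the later one.

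Of the 40 members, 25 had their highest SM level in ExT rat 5 and 17 their lowest in Sed rat 8, both of the earlier range. Ndufs1 was 238 CPM in rat 8 against a median of 389 CPM among earlier Sed rats. Ndufs8 was 111 CPM in rat 5 against a median of 83.1 CPM among earlier ExT rats. The share of all genes with their extremes in these rats is not given here. The 2 rats were picked by the members' own summed share, so lower estimates without them follow from that choice. They are no independent check. Without these 2 rats the earlier range had 0 members called, 36 of 37 positive and a median of 0.15, and 48.5% of all genes were positive. An unadjusted p under 0.05 was then found for 14 members and 14.7% of all genes. Over all rats without them, 22 of 37 members (median 0.03) and 48.0% of all genes were positive. The median difference between the ranges was then 0.22, with 12 members at an unadjusted p under 0.05 and 0 of 13565 genes called. The share of all genes with an unadjusted p under 0.05 in that fit is not given here.

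Markers of slow fibres (4 of 4 in the tables) are given for rats 5 and 8 and for the ranges. They held 0.489% of nuclear-encoded counts in rat 8 and 2.50% in rat 5, and the fast markers 12.6% and 7.45%. In the earlier range the slow markers ranged from 0.489% to 3.03% in Sed rats (median 1.03%) and from 1.34% to 3.30% in ExT rats (median 2.23%). In the later range the medians were 1.75% in Sed and 1.63% in ExT rats. The medians of fibroblast, erythroid and Schwann cell markers are on the same scale, as a percent of nuclear-encoded counts. Endothelial, macrophage and adipocyte markers were listed too. The endothelial medians in the earlier range were 0.0469% in Sed and 0.0555% in ExT rats, and other values of those lists are not given here. Markers of fibroblasts (4 of 4 in the tables) were at 0.224% in Sed and 0.139% in ExT rats of the earlier range, and 0.190% and 0.222% in the later range. Markers of erythroid cells (2 of 4 in the tables) were at 0.0101% in Sed and 0.0143% in ExT rats of the earlier range, and 0.00647% and 0.00621% in the later range. For Schwann cells (3 of 3) they were 0.00299% and 0.00859% in the earlier and 0.00384% and 0.00731% in the later range. The part of these markers in the training values was not tested.

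In MT 0 of 29 members tested were called between ExT and Sed, beside 0.0% of 19281 genes, and 0 members had an unadjusted p under 0.05 in edgeR. DESeq2 called 0 members. The other 11 members did not pass the filter on low counts. Estimates ran from -0.32 to 0.32, and 19 of 29 were positive, beside 50.7% of all genes. The 95% intervals reached from -0.73 (Ndufa12) to 0.72 (Ndufa13). Ndufv1 had 22, 32 and 56 counts in MT_Sed and 16, 33 and 46 in MT_ExT (log2 fold change 0.01, SE 0.115). Most of both ranges was shared. The 7 mitochondrial-genome subunits had a median of 0.62 and 0 were called.

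In LV 0 of 39 members tested were called, beside 0.0% of 14488 genes, and 0 members had an unadjusted p under 0.05 in edgeR. DESeq2 called 1 gene and 0 members. Estimates were positive for 25 of 39 members and 50.0% of all genes, and the medians were 0.03 and 0.00. With nuclear scaling 13 members were positive, and the medians were -0.02 for the members and -0.05 for all genes. With TMM scaling in the later range alone, 36 of 39 members were positive and their median was 0.06. Of these 39 members, 3 had an unadjusted p under 0.05 and 0 were called, beside 0 of 14502 genes called. The share of all genes with an unadjusted p under 0.05 in that range is not given here. Ndufv1 was 391, 443 and 536 CPM in LV_Sed and 429, 487 and 539 CPM in LV_ExT (log2 fold change 0.08, SE 0.063), and the groups overlapped. Ndufs7 had the smallest unadjusted p of the members (log2 fold change 0.11, SE 0.057, adjusted p = 0.8).

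Tests of whether the training effect differed between tissues called no member. For MT minus SM 0 of 40 members were called, beside 0.0181% of 27684 genes. An unadjusted p under 0.05 was found in edgeR for 4 members and 8.50% of all genes (5 members in DESeq2, which called 0 members). In the earlier range alone 12 of 40 were positive, with a median of -0.25. There 11 had an unadjusted p under 0.05 and 0 were called, beside 20 of 27526 genes called. In the later range 24 of 40 were positive, with a median of 0.08. There 2 had an unadjusted p under 0.05 and 0 were called, beside 1 of 27297 genes called. For LV minus SM, in the 14 rats with both tissues, 0 of 39 members were called, beside 0.0% of 15049 genes. Of these members 36 were positive, beside 52.7% of all genes, and their median was 0.14 against 0.01 for all genes. An unadjusted p under 0.05 was found in edgeR for 4 members and 4.57% of all genes (4 members in DESeq2, which called 0 members). In the 12 rats of the later range alone 19 members had an unadjusted p under 0.05, and the median was 0.23. There 0 members were called, beside 0 of 15063 genes. For the single ranges the share of all genes with an unadjusted p under 0.05 is not given here, so these counts have no background. In all 14 rats the estimate of LV minus SM was 0.26 for Ndufv2 (SE 0.115), 0.27 for Ndufc2 (SE 0.125) and 0.01 for Ndufv1 (SE 0.104).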

How the data were processed

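Whole-read counts per gene were deposited by the authors. Per the submitters' processing notes, FastQC 0.74, cutadapt 4.6, STAR 2.7.11a and HTSeq were used with the build mRatBN7.2. Counting mode and strand setting are not given in the sources used here. Libraries of separate rats are the replicates. Members, lists, motifs and comparisons were chosen with earlier results of these data known. The named genes are the members called (at most 12 a direction, by size), the core subunits, Ndufs5, Ndufa4, Ndufa4l2, Ndufab1 and the extremes of level and spread. Others are named by role, after their values were seen. The values of 1 member are not reported here.

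Each comparison used edgeR 4.0.16 (R 4.3.3): filterByExpr, TMM, robust quasi-likelihood fit, two-sided test, Benjamini-Hochberg adjustment over all genes tested, called at an adjusted p under 0.05. LV was compared with SM of the same rats. The scripts were tested on simulated data. Alternatives were DESeq2 1.42.0, other scalings, no filter, thinning, rat ranges, left-out rats and the rat as a block. SM, MT and LV libraries with 1 number come from 1 rat. Deviations of same-rat pairs had a median correlation of 0.0207 for SM and MT and 0.0369 for SM and LV. Nuclear scaling (other than for MT against SM) and leaving out rats 2, 5 or 8 were chosen after seeing the data.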

Additional observations from a re-analysis of the deposited data

Results flagged for a closer look

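In 3 of 80 groups of 7 LV libraries, 1 per arm for each member with counts in LV and for the summed share, 1 library stood apart from the others, with a gap over the group's range above 0.568. Chance flags about 1 in 20 groups. Ndufc2 was 65.83 CPM in LV_Sed rat 20, the lowest, with the next library at 76.09 and the highest at 82.75. Ndufv3-ps1 was 0.3157 CPM in LV_ExT rat 17, the lowest, with the next at 0.5175 and the highest at 0.6595. Ndufa10l1 (ENSRNOG00000062245) was 2.553 CPM in LV_ExT rat 18, the highest, with the next at 1.656 and the lowest at 1.181.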

How the results depend on the processing

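In SM, members called higher with training went from 0 to 2 in the earlier range alone. For MT against SM in Sed rats, members called higher went from 2 to 0 after thinning and 4 with nuclear scaling. In ExT rats they went from 1 to 2 with library totals, 2 with no filter on low counts, 2 without mitochondrial-genome genes, 0 in the earlier range, 0 after thinning and 3 with nuclear scaling. Thinning left 17 called lower in ExT rats, where fewer members could be tested and could pass the filter through SM alone. Estimates for MT against SM that reversed were Ndufa4l2 in Sed rats (0.34 with library totals, 0.93 with nuclear scaling), Ndufa10l1 ENSRNOG00000062245 in Sed rats (1.15 and 1.69) and Ndufa4l2 in ExT rats (0.11 and 0.55). Nuclear scaling left 9 members called lower in LV in Sed and 9 in ExT rats. It reversed Ndufa6 (0.15), Ndufc2 (0.22), Ndufb10 (0.28), Ndufa4l2 (0.0834) and Ndufa9 (0.30) in Sed rats, and Ndufa4 (0.036), Ndufb10 (0.19), Ndufa4l2 (0.0058) and Ndufa9 (0.20) in ExT rats. As a percent of all counts the summed share was 0.4153 in SM_Sed, 0.4410 in SM_ExT, 0.04691 in MT_Sed, 0.04827 in MT_ExT, 0.4913 in LV_Sed and 0.5027 in LV_ExT. As a percent of nuclear-encoded counts it was 0.09066 in MT_Sed without Ndufa4 and Ndufa4l2, against 0.09550 with them. The cause was not tested.

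With the rat as a replicate block, 2 members were called higher and 37 lower in MT of Sed rats, 1 and 36 of ExT rats, 18 and 16 in LV of Sed and 18 and 15 of ExT rats, and 0 in both comparisons of training effects between tissues. Of the member values in MT libraries, 32.9% were under 10 counts.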
